A study of Mus musculus with 25 samples.

Results

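The genes described here are 10 markers of the primitive endoderm, namely Gata6, Gata4, Sox17, Sox7, Foxa2, Pdgfra, Dab2, Cubn, Amn and Lrp2. They were chosen by name from tables of 35731 genes in mouse embryonic stem cells (mESCs) and 24062 genes in 8-cell embryos, and all 10 had a row in both tables. Gata6 and Cubn were put in the group because their RNA was higher in Dot1L knockout (KO) mESCs, so the difference between KO and wild-type (WT) mESCs is given below as a description, without a test. The embryo RNA and the histone peaks did not enter that choice, but all 10 genes were chosen with earlier results of these data known.

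RNA of v6.5 mESCs came from 3 WT and 2 Dot1L KO libraries, neither of them treated. RNA of 8-cell embryos of a B6D2F1 by Cast/EiJ cross was taken 56 hours post fertilization from 4 wild-type pools, each of 30 to 35 embryos, with 2 pools given the solvent DMSO and 2 given the Dot1L inhibitor SGC0946. Peaks of dimethylated and trimethylated lysine 79 of histone H3 (H3K79me2 and H3K79me3) came from 2 WT and 2 KO libraries of v6.5 mESCs for each mark. The labels name neither the deleted part of Dot1L, nor the number of KO clones, nor the use of feeder cells, nor the dose of the inhibitor. They do not say whether replicates were separate cultures, so p-values measure the spread between these libraries, which may be technical.

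Dot1L places methyl groups on lysine 79 in histone H3, a mark found over the bodies of transcribed genes. The primitive endoderm is the layer of the inner cell mass that goes on to line the yolk sac, as visceral endoderm around the embryo and as parietal endoderm on the outer wall. FGF4 from the epiblast, acting through FGF receptors and ERK, favours GATA6 over NANOG in its precursors, and SOX17, GATA4 and SOX7 follow. The mature layer takes up nutrients by endocytosis through the receptors megalin (Lrp2) and cubilin (Cubn). Embryonic stem cells stand for the epiblast and are known to hold a few cells that lean towards primitive endoderm.

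Library totals were 26860527 to 33755064 estimated counts in mESCs and 24950199 to 32479590 counts in embryos. The Dot1l gene itself gave 2878, 3151 and 2849 counts in the WT libraries against 2319 and 2201 in the KO libraries (log2 fold change -0.39, SE 0.06, edgeR adjusted p = 1.6e-04), which is 104, 96.8 and 99.1 CPM against 81.4 and 71.6 CPM (counts relative to the library size as scaled by edgeR). RNA of the gene was thus present in KO, and with the deleted part not named its level is a limited check of the labels. All 12 pluripotency markers of a fixed list had counts in each table. Their summed level was 4621 to 4693 CPM in WT, 4246 to 4437 CPM in KO, 3394 to 3804 CPM with DMSO and 2449 to 2927 CPM with the inhibitor. Replicate libraries of each group differed by more than sampling noise, where chi-square divided by its degrees of freedom was 2.36 to 5.28 between mESC libraries and 27.3 and 36.7 between embryo pools.

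In KO mESCs, 6 of the 10 genes had more RNA in both KO libraries than in any WT library, in the order Cubn, Gata6, Sox17, Dab2, Pdgfra and Amn by size of the difference. The factors Gata4 and Sox7, which mark later primitive endoderm, were not higher, Foxa2 was at the limit of detection, and Lrp2 was slightly lower. A share of 31.9% of the 19561 genes tested also lay higher without overlap between the groups, and 30.6% lay lower (62.5% in all). With an adjusted p under 0.05 in edgeR, 22.3% of genes were called higher and 21.4% lower (43.7% in all). These were 4358 and 4190 genes, against 5488 higher and 3170 lower with upper-quartile scaling. Of the 9 members that passed the filter on low counts, 6 were called higher and 1 lower. Since Gata6 and Cubn were picked from this contrast, nothing is read from those counts. These are bulk libraries, so more cells of a type and more RNA per cell cannot be told apart.

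Among the transcription factors, Gata6 (ENSMUSG00000005836), a zinc finger factor that starts the primitive endoderm programme, gave 13, 25 and 22 counts in the WT libraries against 118 and 108 with the knockout. Its levels were 0.472, 0.768 and 0.765 CPM in WT and 4.14 and 3.52 CPM in KO. The KO libraries lay far above all WT libraries, with means of 3.83 ± 0.445 CPM (SD, n = 2) and 0.668 ± 0.17 CPM (SD, n = 3), a 5.73-fold difference. Sox17 (ENSMUSG00000025902), an HMG box factor of primitive and definitive endoderm, gave 7, 12 and 8 counts in the WT libraries against 31 and 25 with the knockout. Its mean was 0.3 ± 0.0605 CPM in WT (SD, n = 3) and 0.951 ± 0.194 CPM in KO (SD, n = 2), and its groups did not overlap either.

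The remaining 3 factors did not follow Gata6 and Sox17. Gata4 (ENSMUSG00000021944), the close relative of Gata6 that comes up later in the same layer, stood at 5.44, 4.79 and 6.19 CPM in WT and at 4.81 and 5.17 CPM in KO. Its groups overlapped. Sox7 (ENSMUSG00000063060), a marker of primitive and parietal endoderm, had 2.83, 2.95 and 2.78 CPM in WT and 2.28 and 2.73 CPM in KO, where both KO libraries were just below the lowest WT library. Foxa2 (ENSMUSG00000037025), a forkhead factor of visceral and definitive endoderm, gave 8, 3 and 1 counts in the WT libraries against 1 and 9 with the knockout and did not pass the filter on low counts.

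Pdgfra (ENSMUSG00000029231), the receptor for platelet-derived growth factor that marks primitive endoderm precursors, had 5.44, 5.25 and 5.36 CPM in WT and 10.7 and 8.92 CPM in KO. The WT libraries were close together and both KO libraries were well above them, with a 1.83-fold ratio of the means. Pdgfra is also a gene of fibroblasts, which serve as feeder cells in some mESC cultures. Of 16 fibroblast markers, all 16 had counts and none was at 0. Their summed level was 413.9 to 513.6 CPM in WT and 536.3 to 616.9 CPM in KO, and their part in the Pdgfra difference was not tested.

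The endocytic genes differed among themselves. Cubn (ENSMUSG00000026726) encodes cubilin, a large extracellular receptor without a membrane anchor of its own. It gave 39, 55 and 51 counts in the WT libraries against 472 and 391 with the knockout, or 1.42, 1.69 and 1.77 CPM against 16.6 and 12.7 CPM. Both KO libraries were far above WT, with means of 14.7 ± 2.72 CPM (SD, n = 2) and 1.63 ± 0.188 CPM (SD, n = 3), a 9.01-fold difference.

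Amn (ENSMUSG00000021278) encodes amnionless, the membrane protein that anchors cubilin and carries it to the cell surface. Its counts were 15, 16 and 13 in the WT libraries against 25 and 27 with the knockout, a 1.77-fold ratio of the means at low counts. The groups did not overlap, but the edgeR call of Amn was lost in DESeq2, with no filter, with a replicate block and in each of the 5 fits without 1 library, while its log2 fold change stayed between 0.76 and 0.89.

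Dab2 (ENSMUSG00000022150) encodes a clathrin adaptor of endocytic receptors. It had 3.95, 5.16 and 4.59 CPM in WT and 12.6 and 12.3 CPM in KO, a 2.72-fold ratio with the KO libraries close together and well above WT. Lrp2 (ENSMUSG00000027070), the megalin receptor that works with cubilin, was the exception. It had 112, 109.6 and 110 CPM in WT and 92.2 and 94.2 CPM in KO, so both KO libraries were below all WT libraries, at 0.844 of the WT mean.

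**Figure D1:**
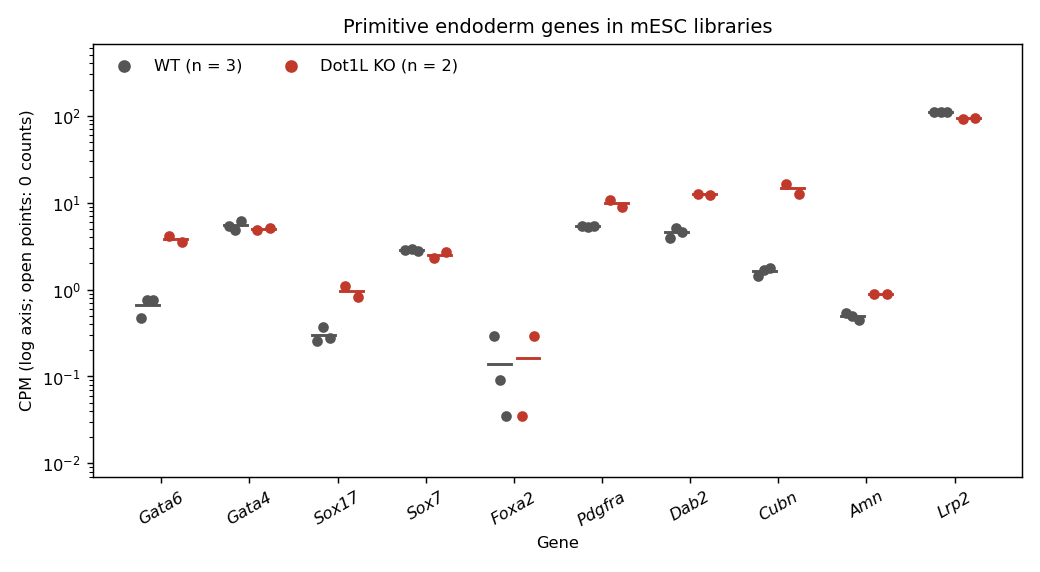
Level of each gene in each mESC library, in CPM on a log axis, with points for libraries and bars for the means of WT (grey, n = 3) and Dot1L KO (red, n = 2). The red points of Gata6, Sox17, Pdgfra, Dab2, Cubn and Amn lie above all grey points of the same gene, while those of Lrp2 lie at 92.2 and 94.2 CPM, below the grey ones.

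On the log2 scale the differences of KO minus WT were 3.16 for Cubn (SE 0.15), 2.50 for Gata6 (SE 0.22), 1.63 for Sox17 (SE 0.35) and 1.44 for Dab2 (SE 0.11). They were 0.87 for Pdgfra (SE 0.11) and 0.82 for Amn (SE 0.30). The values of Sox7, Gata4 and Lrp2 were -0.18 (SE 0.17), -0.13 (SE 0.13) and -0.25 (SE 0.04). Leaving out any 1 library kept the sign of all 9, with values of 2.96 to 3.34 for Cubn, 2.31 to 2.61 for Gata6 and 1.41 to 1.83 for Sox17. The small values of Gata4 and Sox7 ranged from -0.22 to -0.03 and from -0.33 to -0.07 in the same fits. Lrp2 stayed between -0.26 and -0.18 over 10 alternatives. The 95% intervals of the fit for Gata4 and Sox7, from -0.42 to 0.16 and from -0.54 to 0.17, included 0.

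The start sites of the receptor genes are shown because Cubn, Amn and Lrp2, whose proteins work together, differed from each other in the KO. Cubn was picked from that contrast, and a link between these sequences and the RNA differences was not tested. RefSeq sequences of build GRCm38.p6 hold 250 bases before and 50 after a gene's start and matched 6 of the 10 genes. They are written 5′ to 3′ on the gene's strand, so that the start follows the base numbered 250, and each CG is in capitals. The window of Cubn is chr2:13491827-13492126 on the minus strand, that of Amn is chr12:111270846-111271145 on the plus strand and that of Lrp2 is chr2:69585980-69586279 on the minus strand.
Cubn: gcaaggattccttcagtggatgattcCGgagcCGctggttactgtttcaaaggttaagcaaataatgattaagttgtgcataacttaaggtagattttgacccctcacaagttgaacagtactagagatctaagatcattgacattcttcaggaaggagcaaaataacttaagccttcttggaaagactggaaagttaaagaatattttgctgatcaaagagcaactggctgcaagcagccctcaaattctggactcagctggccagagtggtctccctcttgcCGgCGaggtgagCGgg
Amn: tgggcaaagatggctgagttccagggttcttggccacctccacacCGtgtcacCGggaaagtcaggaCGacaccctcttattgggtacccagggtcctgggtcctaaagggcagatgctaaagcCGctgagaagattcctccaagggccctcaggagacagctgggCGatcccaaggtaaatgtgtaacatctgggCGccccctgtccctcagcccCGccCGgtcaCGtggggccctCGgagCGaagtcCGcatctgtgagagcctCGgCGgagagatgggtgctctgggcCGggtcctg
Lrp2: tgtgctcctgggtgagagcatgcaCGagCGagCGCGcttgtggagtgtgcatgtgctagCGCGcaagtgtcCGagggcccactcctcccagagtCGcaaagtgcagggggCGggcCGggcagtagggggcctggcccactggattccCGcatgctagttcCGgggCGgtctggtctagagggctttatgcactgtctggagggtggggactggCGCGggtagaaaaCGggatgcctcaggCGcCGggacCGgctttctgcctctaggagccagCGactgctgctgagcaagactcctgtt

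The Cubn window held 5 CG and 44.3% G and C, the Amn window 15 CG and 62.3%, and the Lrp2 window 20 CG and 65.0%. The median of 32851 promoter windows was 7 CG and 52.7%, and 62.0% of windows held at least as many CG as that of Cubn, 34.6% as that of Amn and 26.5% as that of Lrp2. The 3 windows were searched on both strands for AGATAA (a core of GATA factor motifs, in 11.2% of all windows), TGTTTAC (forkhead factors, 3.65%) and ACAATG (SOX factors, 12.6%), and none held a match. Matches to different motifs could have shared bases. The Pdgfra window and the Dab2 window at the inner start had none either. The other Dab2 window, chr15:6299539-6299838 on the plus strand, held 1 match to AGATAA, as did 1 of the 3 windows of Foxa2, at chr2:148045415-148045714 on the minus strand. The Dab2 window is shown with the match in capitals, read on the opposite strand, from base 265.
Dab2: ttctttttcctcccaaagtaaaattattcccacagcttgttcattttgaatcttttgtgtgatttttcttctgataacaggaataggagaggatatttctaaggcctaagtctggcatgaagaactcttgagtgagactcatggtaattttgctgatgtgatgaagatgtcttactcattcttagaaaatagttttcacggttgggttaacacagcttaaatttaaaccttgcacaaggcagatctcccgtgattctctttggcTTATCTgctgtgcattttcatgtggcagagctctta

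The mESC genes whose profile over the 5 libraries was most like that of Gata6, by Euclidean distance of log2 CPM from the WT mean among 16422 genes, were Nags, Mei1 and Vipr1, at distances of 0.342, 0.37 and 0.426. Those nearest to Cubn were Pkhd1l1, Muc3 and Calb2, at 0.365, 0.602 and 0.689. None of these 6 is in the group or in the lists below.

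In 8-cell embryos the genes split into those with clear RNA and those with next to none, and the inhibitor changed none of them past the test. With DMSO, Gata6 was at 281.5 and 290.1 CPM, while Sox17, Sox7 and Foxa2 together had 1 count in the DMSO pools. Of the 14351 genes tested, edgeR called 0% after adjustment at a threshold of 0.05, while 8.15% passed that threshold before adjustment. DESeq2 called 126 genes, and edgeR called 365 without inhibitor replicate 2. Of the 10 genes, 7 passed the filter on low counts, 0 were called by edgeR or by DESeq2, and 0 passed 0.05 before adjustment.

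Gata6 had 7641 and 7696 counts with DMSO and 6250 and 8403 with SGC0946, or 281.5 and 290.1 CPM against 238.3 and 255.6 CPM. Both treated pools were below both controls after scaling, which 19.2% of tested genes also were. Its log2 fold change was -0.21 (SE 0.13, 95% interval -0.48 to 0.06, edgeR adjusted p = 0.741). Gata4 had 72.6 and 80.7 CPM with DMSO and 45.2 and 96.7 CPM with the inhibitor, so that the treated pools lay on either side of the controls. Its log2 fold change of -0.11 (SE 0.27, edgeR adjusted p = 0.971) was 0.34 without inhibitor replicate 1 and -0.76 without inhibitor replicate 2.

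Pdgfra had 12.7 and 13.3 CPM with DMSO and 18.6 and 13.8 CPM with the inhibitor. Dab2 had 36.9 and 37.4 CPM against 61.4 and 39.1 CPM. For both genes the treated pools lay above the controls, 1 of them only slightly, as they did for 20.1% of tested genes. Log2 fold changes were 0.32 for Pdgfra (SE 0.33, edgeR adjusted p = 0.883) and 0.43 for Dab2 (SE 0.24, edgeR adjusted p = 0.709), with 95% intervals from -0.39 to 1.02 and from -0.09 to 0.96.

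The receptors differed between pools of the same treatment. Cubn had 10.7 and 16.7 CPM with DMSO and 15.7 and 12.6 CPM with the inhibitor, and its groups overlapped. Amn had 3.94 and 3.58 CPM against 3.96 and 6.33 CPM, and Lrp2 had 59.7 and 50.5 CPM against 82.8 and 35.6 CPM. The inhibitor pools of Lrp2 thus lay above and below both controls, while those of Amn lay above them. Log2 fold changes were 0.05 for Cubn, 0.45 for Amn and 0.10 for Lrp2, with edgeR adjusted p-values of 0.995, 0.911 and 0.979. Their 95% intervals were wide, from -0.70 to 0.80 for Cubn, from -0.75 to 1.66 for Amn and from -0.54 to 0.75 for Lrp2.

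The other 3 genes were nearly silent. Foxa2 had 0 counts in all 4 pools, which allows up to 3 counts or 0.0924 to 0.12 CPM by library. Sox7 had 1 count in DMSO replicate 2 and 0 elsewhere. Sox17 had 8 counts in inhibitor replicate 2 and 0 in the other 3 pools. These limits cover counting error only.

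**Figure D2:**
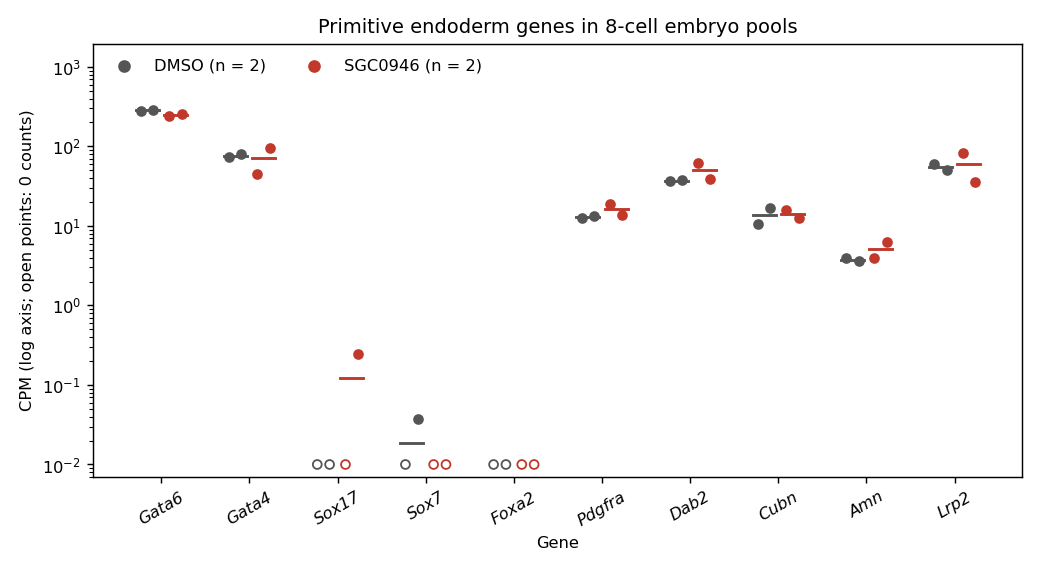
Level of each gene in each pool of 8-cell embryos, in CPM on a log axis, with DMSO in grey and SGC0946 in red (n = 2 each), bars for means and open points for 0 counts. Gata6 lies at 238.3 to 290.1 CPM in all 4 pools, Sox17, Sox7 and Foxa2 lie at or near 0, and the red points of Gata4 and Lrp2 are wide apart.

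**Figure D3:**
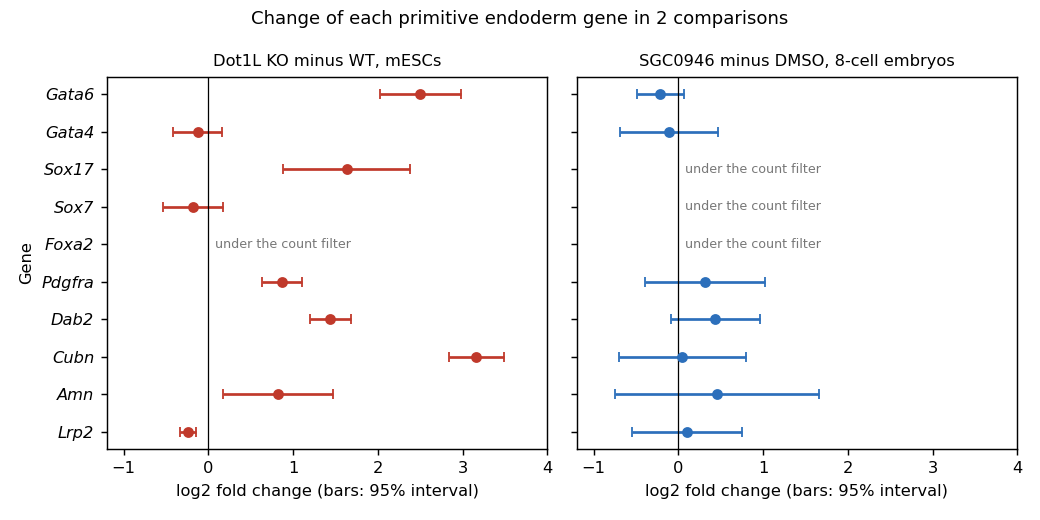
Log2 fold change of each gene with its 95% interval from the edgeR fit, for Dot1L KO minus WT mESCs (left) and SGC0946 minus DMSO embryos (right). On the left Cubn (3.16) and Gata6 (2.50), which were picked from that contrast, stand farthest from 0. On the right all 7 intervals include 0.

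The 2 RNA tables came from different kits, tools and cells, so levels were not tested between them. Within its own table, Gata6 was at 0.472 to 4.14 CPM in mESCs and at 238.3 to 290.1 CPM in embryos. Gata4 was at 4.79 to 6.19 CPM and at 45.2 to 96.7 CPM. Lrp2 had 92.2 to 112 CPM in mESCs and 35.6 to 82.8 CPM in embryos. Sox7 had 65 to 96 counts per mESC library and 0 or 1 count per embryo pool.

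Neither WT list of H3K79me2 had a peak over any of the 10 genes, nor did a KO list. Over all 18589 tested genes with a position, 47.5 and 46.5% had one in the lists of WT replicates 1 and 2 (3.19% in replicate 1 only), against 0.0646 and 0.0538% in the KO lists, so that 44.3% had an H3K79me2 peak in both WT lists and 49.7% in at least 1. Of genes called higher in KO, 34.4% had H3K79me2 in both WT lists, and of genes called lower, 68.4%. The count of 0 of 10 was the same with 2 kb added on both sides of each gene.

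Tested genes were put in 5 groups of equal size by their WT level in CPM. From the lowest group to the highest, 3.31, 7.96, 37.6, 78.4 and 94.4% of genes had H3K79me2 in both WT lists. Gata6, Sox17 and Amn were in the lowest group, at most 1.43 CPM, and Gata4, Sox7, Pdgfra, Dab2 and Cubn in the next one, up to 6.07 CPM. Lrp2 was in the highest group, where 95.9% of genes had an H3K79me2 peak in at least 1 WT list and Lrp2 had none over 162 kb. CPM is not corrected for transcript length, which places genes with long transcripts such as Lrp2 higher. The H3K79me2 peak nearest to Lrp2 lay 137 and 138 kb away in the WT lists, over Ppig, with a 9.33- and 9.55-fold enrichment.

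The nearest H3K79me2 peaks of the other genes lay over neighbouring genes as well, except those of Dab2, which lay over no protein-coding gene. Genes of other kinds were not looked up. They were closest for Cubn, at 5.9 and 9.19 kb over Rsu1, and for Gata4, at 21.4 and 21.5 kb over Fdft1. They were 34.7 and 61.3 kb away for Sox7, over Pinx1, and 37 and 38 kb away for Amn, over Traf3. For Pdgfra the distance was 107 and 108 kb, over Chic2. It was 256 kb or more for Gata6, Sox17, Dab2 and Foxa2 in both lists, and largest for Foxa2, at 626 kb. Enrichments are the values the authors deposited.

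H3K79me3 peaks were called over 5 of the 10 genes in WT replicate 1 and over 0 in WT replicate 2, so none was found in both WT lists. The share of tested genes was 26.8% in the list of replicate 1, 11.6% in that of replicate 2, 15.6% in replicate 1 only and 11.2% in both (8.6% of genes called higher in KO and 21.0% of those called lower). In the groups by WT level given above, from the lowest to the highest, 11.4, 16.4, 18.7, 28.1 and 59.5% of genes had one in replicate 1. The list of replicate 1 held 19800 peaks and that of replicate 2 held 7338, so the calls over these genes rest on the longer list.

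The peaks in WT replicate 1 were short, from 188 to 409 bases. Sox17, on chromosome 1 from 4490928 to 4497426, had 3 of them, with the highest at 4492170 to 4492490 (5.24-fold, −log10 q of 8.46). Amn, on chromosome 12 from 111271096 to 111276426, had 2, with the highest at 111274464 to 111274716 (5.12-fold, −log10 q of 8.24). Gata6, on chromosome 18 from 11052510 to 11085636, had 2 at 3.71-fold, which began 2.11 and 2.48 kb from the end with the lower coordinate. Gata4 had 1 peak on chromosome 14 at 63244766 to 63245174, also 3.71-fold. Lrp2 had 2 at the end of the gene that holds its start, at 3.05- and 3.28-fold, and the latter covered bases 222 to 300 of the start window printed above. The median of that list was 3.93-fold.

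In KO, 2 of the 10 genes had a called H3K79me3 peak, both in replicate 2, where 0.802% of tested genes had one. The peak over Gata6 at 11054553 to 11054941 was enriched 6.18-fold at a −log10 q of 7.39, and it covered 188 bp of a peak of WT replicate 1. The peak over Amn at 111274527 to 111274721 had 4.63-fold and 3.5, and it shared 190 bp with a peak of WT replicate 1. KO replicate 1, whose list held 178 peaks against 328, had none over the 10 genes. Both KO peaks were thus seen in 1 of 2 libraries. An exact permutation test of 2 libraries against 2 cannot go below a 2-sided p of 0.333, so no test was run on peaks.

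**Figure D4:**
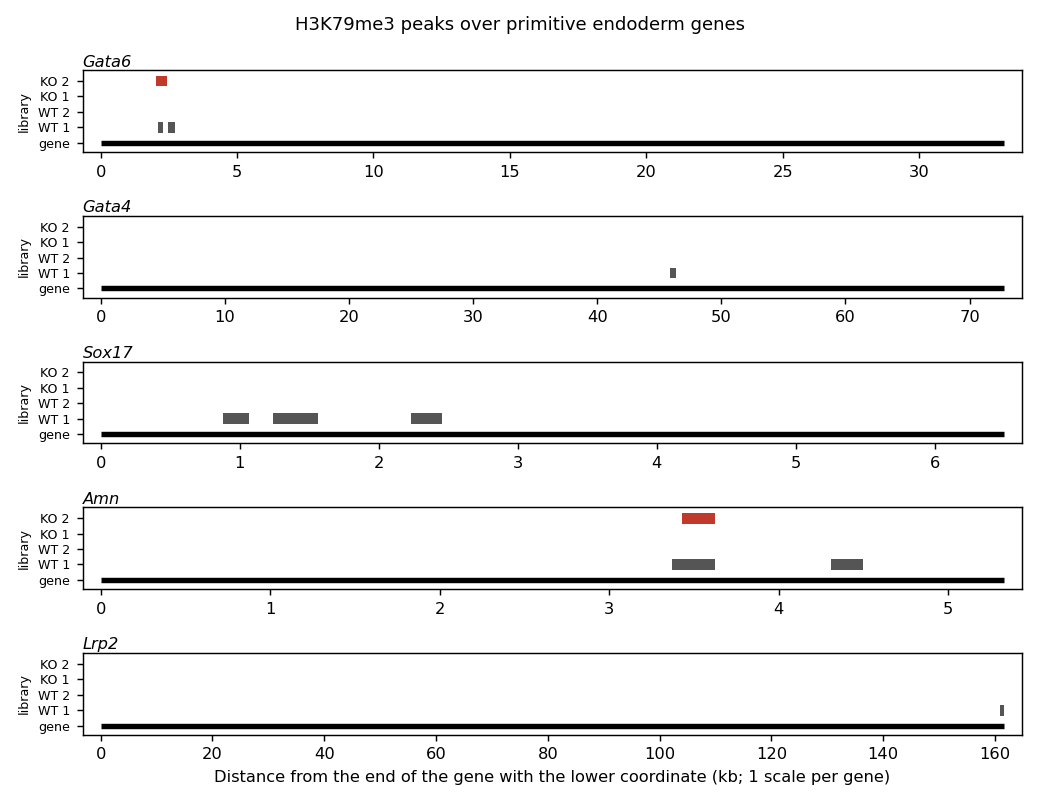
H3K79me3 peaks called in each WT and KO library over the 5 genes that had any, by distance in kb from the end of the gene with the lower coordinate, with a separate scale per gene (black bar). Blocks narrower than 0.4% of a gene are widened to be visible, so the 2 Lrp2 peaks run together, and blocks stand only in the rows of WT 1 and, for Gata6 and Amn, KO 2.

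Genes that work with the 10 were counted from lists that share no member with them, against the 43.7% of all tested genes that were called in KO mESCs. The lists were chosen with earlier results of these data known, so their counts are a description. Of 11 further endoderm regulators, 1 rose and 4 fell, with a median log2 fold change of -0.05 against 0.00 for all genes. Hhex, a homeobox factor of visceral endoderm, rose from 2.86 ± 0.114 (SD, n = 3) to 4.84 ± 0.241 CPM (SD, n = 2), with an edgeR adjusted p of 6.2e-04. Hnf4a, a nuclear receptor of visceral endoderm, fell by 1.27 on the log2 scale (edgeR adjusted p = 9.6e-05). Klf5 fell by 0.51 and Nr5a2 by 0.42 (edgeR adjusted p = 2.1e-05 and 6.9e-05), and both are also regulators of pluripotent cells.

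Of 16 visceral endoderm genes, 11 were tested, 3 rose and 3 fell, with a median of 0.07. Trf (transferrin) rose by 1.83 on the log2 scale, from 5.46 ± 0.52 (SD, n = 3) to 19.3 ± 0.418 CPM (SD, n = 2; edgeR adjusted p = 7.0e-09). Rbp4, a carrier of retinol, rose by 1.48 and Apoe by 0.65 (edgeR adjusted p = 1.8e-04 and 6.1e-08). Apom, an apolipoprotein, and Lefty1, a Nodal inhibitor that stem cells also express, fell by 2.29 and 1.59 (edgeR adjusted p = 2.8e-05 and 1.8e-10). Afp and Ttr, the secreted proteins most typical of visceral endoderm, were under the filter. Their means were 0.0218 and 0 CPM in WT and 0.131 and 0.0338 CPM in KO. The other genes under the filter were Apoa1, Ihh and Apoa4. They had 0.271, 0.256 and 0.0102 CPM in WT and 0.241, 0.237 and 0.0325 CPM in KO. In mESCs 3 counts equal 0.0889 to 0.112 CPM, so these means rest on few counts and no change is read from them.

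Of 15 parietal endoderm and basement membrane genes, 6 rose and 2 fell, with a median of 0.12, but without KO replicate 1 the calls were 4 higher and 4 lower. Lama1, a laminin chain, rose from 57.0 ± 1.15 (SD, n = 3) to 87.8 ± 2.5 CPM (SD, n = 2; edgeR adjusted p = 2.6e-07). Pth1r, a hormone receptor of parietal endoderm, rose by 0.99 on the log2 scale and Snai1, a repressor of epithelial genes, by 0.83 (edgeR adjusted p = 0.0017 and 0.013). Lamc1, another laminin chain, fell by 0.35, and Sparc, a matrix protein of parietal endoderm, by 0.21 (edgeR adjusted p = 6.8e-06 and 0.002).

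Of 15 partners of the endocytic receptors, 14 were tested, 5 rose and 6 fell, with a median of 0.09. The related receptor Vldlr rose by 0.74 and the motor protein Myo6 by 0.55 on the log2 scale (edgeR adjusted p = 1.3e-06 and 2.3e-05). The endosomal chloride transporter Clcn5 fell from 134.1 ± 1.35 (SD, n = 3) to 60.4 ± 1.57 CPM (SD, n = 2; edgeR adjusted p = 1.2e-09). Lrpap1, the chaperone of megalin, fell by 0.56 and Lrp8 by 0.81 (edgeR adjusted p = 1.4e-06 and 0.019).

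Of 20 genes of FGF and PDGF signalling, 11 rose and 6 fell, with a median of 0.20. The receptor Fgfr2, which acts in primitive endoderm precursors, fell from 20.6 ± 1.04 (SD, n = 3) to 5.58 ± 0.584 CPM (SD, n = 2; edgeR adjusted p = 6.1e-09), and its ligand Fgf4 fell by 0.65 on the log2 scale (edgeR adjusted p = 3.3e-08). Pdgfc, a ligand of Pdgfra, fell by 1.63 (edgeR adjusted p = 1.9e-09). Spry4, a feedback inhibitor that FGF signalling induces, rose from 88.0 ± 6.51 (SD, n = 3) to 231.9 ± 20.4 CPM (SD, n = 2; edgeR adjusted p = 2.8e-09). The receptors Fgfr3 and Fgfr4 rose by 1.27 and 1.34 from low levels of 3.65 and 1.72 CPM (edgeR adjusted p = 9.8e-05 and 3.2e-04).

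Markers of other cell types also moved in KO. Of 12 pluripotency markers, 2 rose and 7 fell, with a median of -0.19. Nanog, which opposes Gata6, fell from 495.6 ± 3.59 (SD, n = 3) to 243.8 ± 17.4 CPM (SD, n = 2; edgeR adjusted p = 2.6e-09), and Zfp42 fell by 0.46 (edgeR adjusted p = 1.1e-05), while Tfcp2l1 and Tdgf1 rose by 0.46 and 0.32 (edgeR adjusted p = 5.9e-07 and 5.6e-06). Of 10 trophectoderm markers, 5 rose and 2 fell. Hand1, Krt18 and Krt8 rose by 1.25, 0.62 and 0.60 and Gata3 and Tfap2c fell by 1.11 and 0.37 (edgeR adjusted p from 5.2e-06 to 8.2e-04), at a summed list level of 143.1 to 149.4 CPM in WT and 135.9 to 140.3 CPM in KO.

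Of 10 mesoderm and definitive endoderm markers, 9 were tested, 4 rose and 0 fell, with a median of 0.56. T, Eomes and Cdh2 rose by 0.99, 0.82 and 0.79 (edgeR adjusted p = 4.5e-04, 1.9e-06 and 7.9e-06). The summed level of this list was 29.8 to 33.6 CPM in WT and 50.7 to 52.4 CPM in KO, and none of its genes was at 0. Definitive endoderm is also known to express Sox17, Foxa2, Gata6 and Gata4, and the part of such cells in the Gata6 and Sox17 differences was not tested. Of the 16 fibroblast markers, 15 were tested, 8 rose and 0 fell, with a median of 0.29, but without WT replicate 3 the higher calls numbered 5, and without KO replicate 1 they were 4 higher and 1 lower. Tagln and Acta2, genes of smooth muscle and of activated fibroblasts, and Col1a1 rose by 1.19, 1.10 and 0.62 (edgeR adjusted p = 1.1e-07, 2.0e-06 and 0.0011). Vim, a filament protein of mesenchymal cells, had 139.1 ± 16.2 CPM in WT (SD, n = 3) and 145.9 ± 9.11 CPM in KO (SD, n = 2) and was not called (edgeR adjusted p = 0.507).

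**Figure D5:**
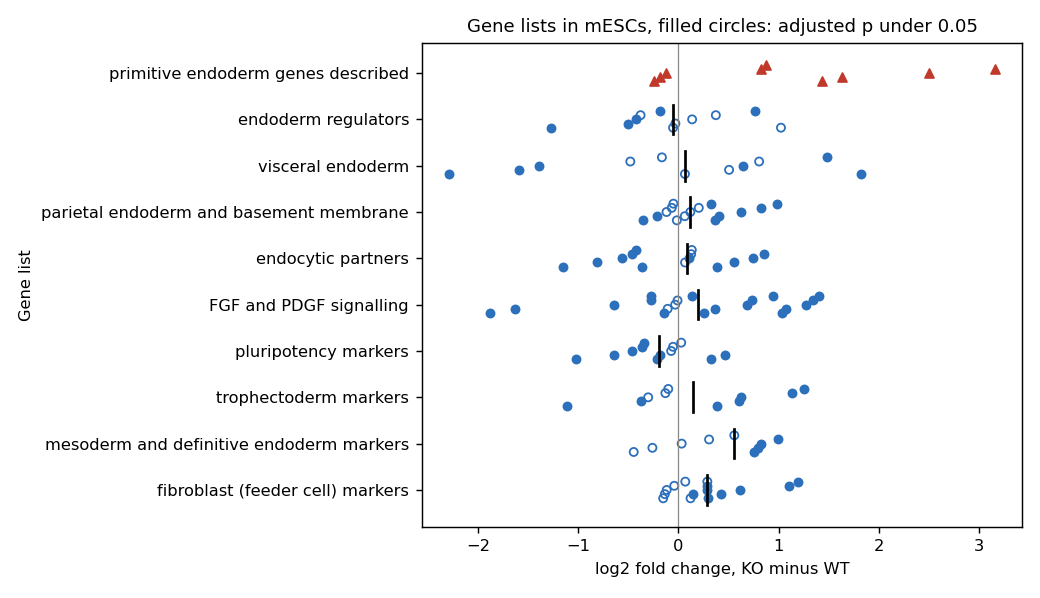
Log2 fold change of Dot1L KO minus WT mESCs for each tested gene of the lists. Triangles are the 9 tested genes of the 10 described, without a median bar. Circles are other genes, filled where the edgeR adjusted p was under 0.05, and bars show the medians of their lists. Cubn (3.16) and Gata6 (2.50) lie to the right of every gene of the other lists. Both were picked from this contrast, so nothing is read from their place. Each of the other lists except that of mesoderm and that of fibroblasts holds filled circles on both sides of 0.

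In embryos, edgeR called 0 genes of the 7 related lists that were examined there. An unadjusted p under 0.05 was found for 8.15% of all tested genes, and for 3 of 9 tested endoderm regulators, 1 of 7 visceral and 1 of 14 parietal endoderm genes, 4 of 14 endocytic partners, 6 of 19 signalling genes, 7 of 12 pluripotency markers and 1 of 8 trophectoderm markers. DESeq2 called 1 endocytic partner and 4 pluripotency markers, all lower, and none in the other lists. The gene with the lowest p in its list was Lrpap1 among endocytic partners, with 837 ± 42.4 CPM (SD, n = 2) with DMSO and 627.7 ± 6.13 CPM (SD, n = 2) with the inhibitor (edgeR adjusted p = 0.332). It was Fgf4 in signalling, with 40.4 ± 1.89 and 24.8 ± 5.06 CPM (SD, n = 2 each; edgeR adjusted p = 0.446), and Tfcp2l1 among pluripotency markers (log2 fold change -0.89, edgeR adjusted p = 0.203). For the other lists it was Sall4 (-0.40, edgeR adjusted p = 0.385), Apoe (0.73, 0.566), Tead4 (-0.38, 0.481) and Pth1r, which was under 1 CPM in all pools.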

How the data were processed

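The 10 genes and the other lists were chosen with earlier results of these data known. Per the submitters' processing notes, reads were placed on mm10, kallisto, STAR and HTSeq are named for RNA and Bowtie2 and MACS2 for ChIP, with no role or version. For WT replicate 1 of the mESC RNA kallisto alone is named, and for the other mESC libraries all 3 RNA tools, so whether that library was processed like the rest is not given in the sources used here. The mESC table deposited by the authors holds estimated counts (expected counts) per Ensembl gene, rounded here, and 69 rows without a symbol (at most 0.0163% of counts) were left out. The deposited embryo table holds whole read counts per symbol. Annotation, strand setting and use of molecular identifiers are not given in the sources used here. RefSeq genes that overlap Gata6, Dab2, Cubn or Amn could share reads with them. The counts of Gata4, Sox7, Pdgfra and Lrp2 were not whole in every library.

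The peak lists deposited by the authors, 1 per library, have the narrowPeak layout, so their enrichment (ratio, fold), score, −log10 p and −log10 q are the authors' values, read by column place. Input libraries were not used here. A gene was marked when its RefSeq body on GRCm38.p6 overlapped a peak by at least 1 bp.

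RNA was fitted with edgeR 4.0.16 in R 4.3.3 (filterByExpr, TMM, quasi-likelihood F test, Benjamini-Hochberg over all tested genes, threshold 0.05), separately for mESCs and embryos, and tested on simulated data. SE is the log2 fold change divided by the root of F. Alternatives were DESeq2 1.42.0, 2 other scalings, no filter, a replicate block and leaving out each library. Named genes of a list were, in each direction, up to 3 called genes with the strongest change, averaging 1 CPM or more and without overlap of the groups, or the lowest p where none was called, and 1 gene that met this rule is not reported here. Afp, Ttr, Apoa1, Apoa4, Ihh and Vim were named outside this rule. Profiles used a prior count of 2. Plots used matplotlib 3.10.9. Totals of 24950199 to 33755064 counts make 3 counts equal to 0.0889 to 0.12 CPM.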

Additional observations from a re-analysis of the deposited data

Results flagged for a closer look

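Gata6 was listed because its libraries lay on opposite sides of their controls in the 2 RNA comparisons. Both KO mESC libraries were above all 3 WT libraries, with a log2 fold change of 2.50, the contrast by which Gata6 was chosen. Both inhibitor pools of 8-cell embryos were below both DMSO pools, with a log2 fold change of -0.21 that did not pass the edgeR test (95% interval -0.48 to 0.06, adjusted p = 0.741), and 19.2% of tested genes also lay lower without overlap. The difference between the 2 comparisons was not tested, because the tables differ in cells, kit and kind of count.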

How the results depend on the processing

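In mESCs the log2 fold changes of all 9 tested genes kept their sign over 10 alternatives each. Of the 10 genes, 7 were called in the reported fit and 6 in DESeq2, where the reported fit called 43.7% of all tested genes. Gata6 and Cubn were picked from this contrast, so nothing is read from those counts. Upper-quartile scaling moved the log2 fold changes of all genes by 0.07 at the median and called 5488 genes higher and 3170 lower in KO, against 4358 and 4190 in the reported fit. Leaving out 1 library gave 5 to 10 fibroblast markers called. In embryos 0 of the 10 genes were called under all 9 alternatives. All genes called there numbered 0, against 126 in DESeq2, 111 with no filter, 171 with a replicate block and 4 to 365 without 1 library. Between libraries with the same replicate number, deviations from the group mean had correlations of -0.04 and -0.09 in mESCs and 0.07 in embryos. With 2 libraries per embryo group this check gives a single value, so it cannot settle whether those pools were paired. The block changed no call of the 10 genes other than that of Amn. It joins libraries by replicate number, and the labels do not say that these were paired. WT replicate 3 of the mESCs has no KO library of its number, so it adds nothing to the KO difference in that fit. With the block, 1 endoderm regulator, 1 endocytic partner and 4 pluripotency markers were called in embryos, where no filter gave 1 endoderm regulator and 4 pluripotency markers and DESeq2 gave 1 endocytic partner and 4 pluripotency markers. Without 1 library the embryo counts were 0 to 2 for endoderm regulators and endocytic partners, 0 to 1 for visceral endoderm, signalling and trophectoderm, and 0 to 5 for pluripotency markers. The embryo log2 fold change changed sign for Gata4 (-0.76 to 0.34 without 1 library), Cubn (-0.24 to 0.41) and Lrp2 (-0.63 to 0.59, and -0.013 with the block), and the cause was not tested. Genes with H3K79me3 in both WT lists numbered 0, against 5 in at least 1 list and 0 to 5 in single lists, and those with H3K79me2 numbered 0 under all 6 alternatives. Depth limits Foxa2, Sox17 and Amn in mESCs, at 1 to 31 counts, and Gata6 in the WT libraries, at 13 to 25 counts. A group reduced to a single library was assumed to vary like the others.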
